A study of Mus musculus with 6 samples.

Results

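Mitochondrial ribosomal protein genes encode the proteins of the ribosome that works inside mitochondria. They were described in lumbar spinal cord of mouse embryos with and without Tnc, the gene for the extracellular matrix glycoprotein tenascin-C. The genes were taken by name, as every row of the array table whose single annotated symbol was Mrpl or Mrps followed by a number and at most 1 letter. That rule found 85 of the 35557 rows, which stand for 77 of the 19938 genes with a single symbol, and each gene was represented by its row of highest mean over the 6 arrays. The names fixed the membership, but the set and Mrps10 within it were chosen by differences between knockout and wild type measured on these same arrays. The annotated RefSeq gene table of GRCm38.p6 holds 78 genes of this name pattern. The missing gene is Mrpl53, whose only row also carries the symbol Ccdc142 and was left out. That shared row read 8.40 in wild type and 8.40 in knockout on average.

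The mitochondrial ribosome, or mitoribosome, is assembled from ribosomal RNAs transcribed from mitochondrial DNA and from proteins that are all encoded in the nucleus and imported. It translates only the few proteins that mitochondrial DNA encodes, which are core subunits of the respiratory chain and ATP synthase. Part of its proteins belong to families shared with bacterial ribosomes, and the rest were added during the evolution of mitochondria. In developing nervous tissue it serves cells that rely increasingly on oxidative metabolism as neurons and glia differentiate.

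The arrays came from 3 wild-type and 3 Tnc -/- embryonic cords, 1 array per sample, all of strain SV129, age E15.5 and lumbar spinal cord, and the labels call the samples of a group biological replicates. Total RNA was labelled with whole-transcript kits, and signals are the authors' log2 RMA values, so a difference of 1 is a doubling of signal. The labels give neither the litters of the embryos nor the part of Tnc that was removed, and p-values measure the spread between these samples only. Tnc read 10.72, 10.22 and 10.02 in wild type and 9.64, 9.76 and 9.47 in knockout, so the groups were apart (61.8% of the wild-type signal on average) and signal remained in every knockout array. The tissue label was borne out by the lumbar Hox genes Hoxc10, Hoxd10, Hoxa10 and Hoxc9, whose mean lay between 10.99 and 11.17 in all arrays, and by neuronal and radial glial markers (list means from 11.58 to 11.95). The groups were not balanced for sex, since knockout replicates 1 and 3 had high signals of the Y-linked genes Eif2s3y, Kdm5d and Uty and low Xist, and the other 4 arrays the reverse.

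All 77 genes had a mean signal above 6.14, which was exceeded by 5% of 1190 odorant and pheromone receptor genes taken as a guide to background. Of all genes tested 73.65% lay above it. The mean signal lay above the median of all genes for 71 of the 77. Signals of different probes do not rank transcripts, so the following values only show where each row was read. In the small subunit, the highest mean signals were those of Mrps21 (10.81), Mrps15 (10.46) and Mrps5 (10.25) and the lowest those of Mrps12 (7.72), Mrps14 (7.89) and Mrps9 (7.90). In the large subunit, Mrpl40 (11.28), Mrpl34 (11.17) and Mrpl10 (10.94) were read highest and Mrpl33 (7.01), Mrpl44 (7.59) and Mrpl22 (7.77) lowest. The dimmest row of all, at 6.56, was that of Mrps36, whose product has since been assigned to the 2-oxoglutarate dehydrogenase complex and not to the ribosome.

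Mrps10 was set against the other genes because it had shown a difference between the groups in these arrays, so its values are a description and carry no test. It encodes the mitochondrial member of the S10 family, a protein of the head of the small subunit. Mrps10 read 8.69, 8.75 and 8.82 in wild type and 9.15, 9.0035 and 9.23 in knockout. The 3 knockout values all lay above the 3 wild-type values, and the lowest knockout value was that of replicate 2, the knockout array without Y-linked signal. The means were 8.75 ± 0.06 and 9.13 ± 0.11 (SD, n = 3 per genotype). The knockout stood 0.37 higher on the log2 scale (95% interval from 0.18 to 0.57, in the fit without a sex term), at 130% of the wild-type signal. Leaving out any 1 array gave differences from 0.32 to 0.44, and a model with a sex term, in which only knockout replicate 2 is set against wild type, gave 0.25. Because the samples are bulk tissue, more transcript per cell and more cells with the transcript cannot be told apart here or below. The means of 3 marker lists were also higher in every knockout array than in any wild-type array, and those of the other lists overlapped. For spinal neurons (5 markers measured) the list means were 11.58 to 11.62 in wild type and 11.65 to 11.71 in knockout. For the oligodendrocyte lineage (3 measured) they were 8.73 to 8.97 and 8.99 to 9.09. For endothelium (3 measured) they were 9.17 to 9.331 and 9.334 to 9.51. Gene by gene, Snap25, Gad1, Olig2, Pecam1 and Cdh5 had groups apart, while Elavl4, Tubb3, Slc17a6, Sox10, Pdgfra and Cldn5 overlapped. Of all genes, 3.18% were apart and higher in knockout. In other lists Acta1 was apart and higher, and Aif1 and Lum, both read below the background guide, were apart and lower. No marker of the neuronal, oligodendrocyte and endothelial lists was near background, and the part of these lists in the Mrps10 difference was not tested.

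**Figure D1:**
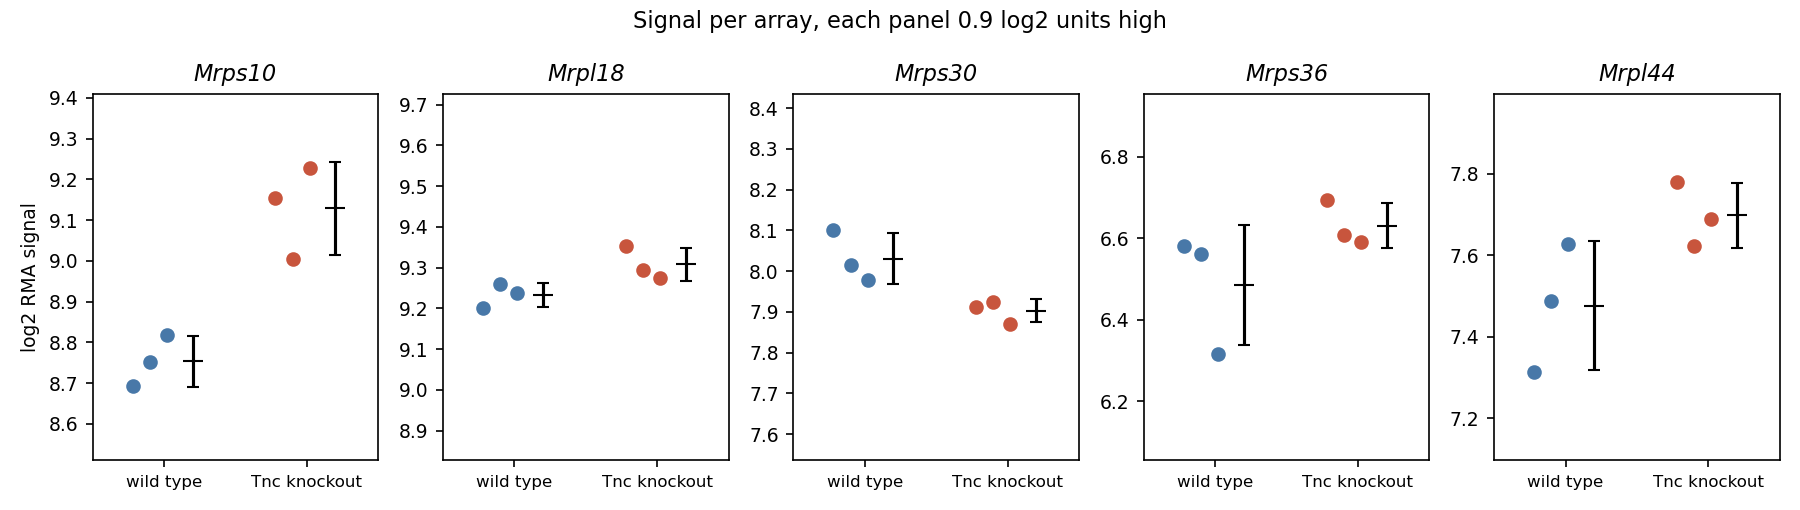
Log2 RMA signal (vertical axes, each spanning the same number of log2 units) of Mrps10, Mrpl18, Mrps30, Mrps36 and Mrpl44 in each array, with wild type in blue, Tnc knockout in red, and black bars for the mean and SD of 3 arrays. The groups are apart for the first 4 genes and touch for Mrpl44, where wild-type replicate 3 read 7.63 and knockout replicate 2 read 7.62.

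Measured within each array against the mean of the other 25 small-subunit genes, Mrps10 stood at -0.42, -0.40 and -0.18 in wild type and at -0.02, -0.05 and 0.19 in knockout. The difference of this within-array contrast was 0.37, as large as that of Mrps10 alone. The genes that flank Mrps10 on chromosome 17 had overlapping groups. On one side Trerf1, Ubr2, Prph2 and Tbcc differed by -0.02, 0.04, -0.15 and -0.0030, and on the other Guca1a, 1700001C19Rik and AI661453 differed by -0.08, -0.11 and -0.03, with no unadjusted p under 0.05 in limma. Prph2, Guca1a and AI661453 had mean signals of 6.11, 5.76 and 6.09, below the background guide of 6.14, so their values do not bear on transcript levels. Guca1b, the next gene, had no row with a single symbol.

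The other 76 genes had differences centred near 0. Of these, 36 were higher and 40 lower in knockout, and the median log2 difference was -0.0029, against -0.0069 over all genes tested. Limma with Benjamini-Hochberg adjustment called 0 of the 77 genes at an adjusted p of 0.05, the background over all 19938 genes being 0%. An unadjusted p under 0.05 was reached by 1 of the 77, Mrps10, or 1.3%, against a background of 1.7%. In the direction of higher signal this was 1 gene against a background of 0.933%, and for lower signal 0 against 0.767%. Among the other 76 the smallest unadjusted p was 0.052. The difference was under 0.1 in size for 57 of the 76, or 75.0%, and for 76.8% of all genes. These differences carried 95% intervals that reached a median of 0.21 to either side, and all 76 intervals held 0.

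**Figure D2:**
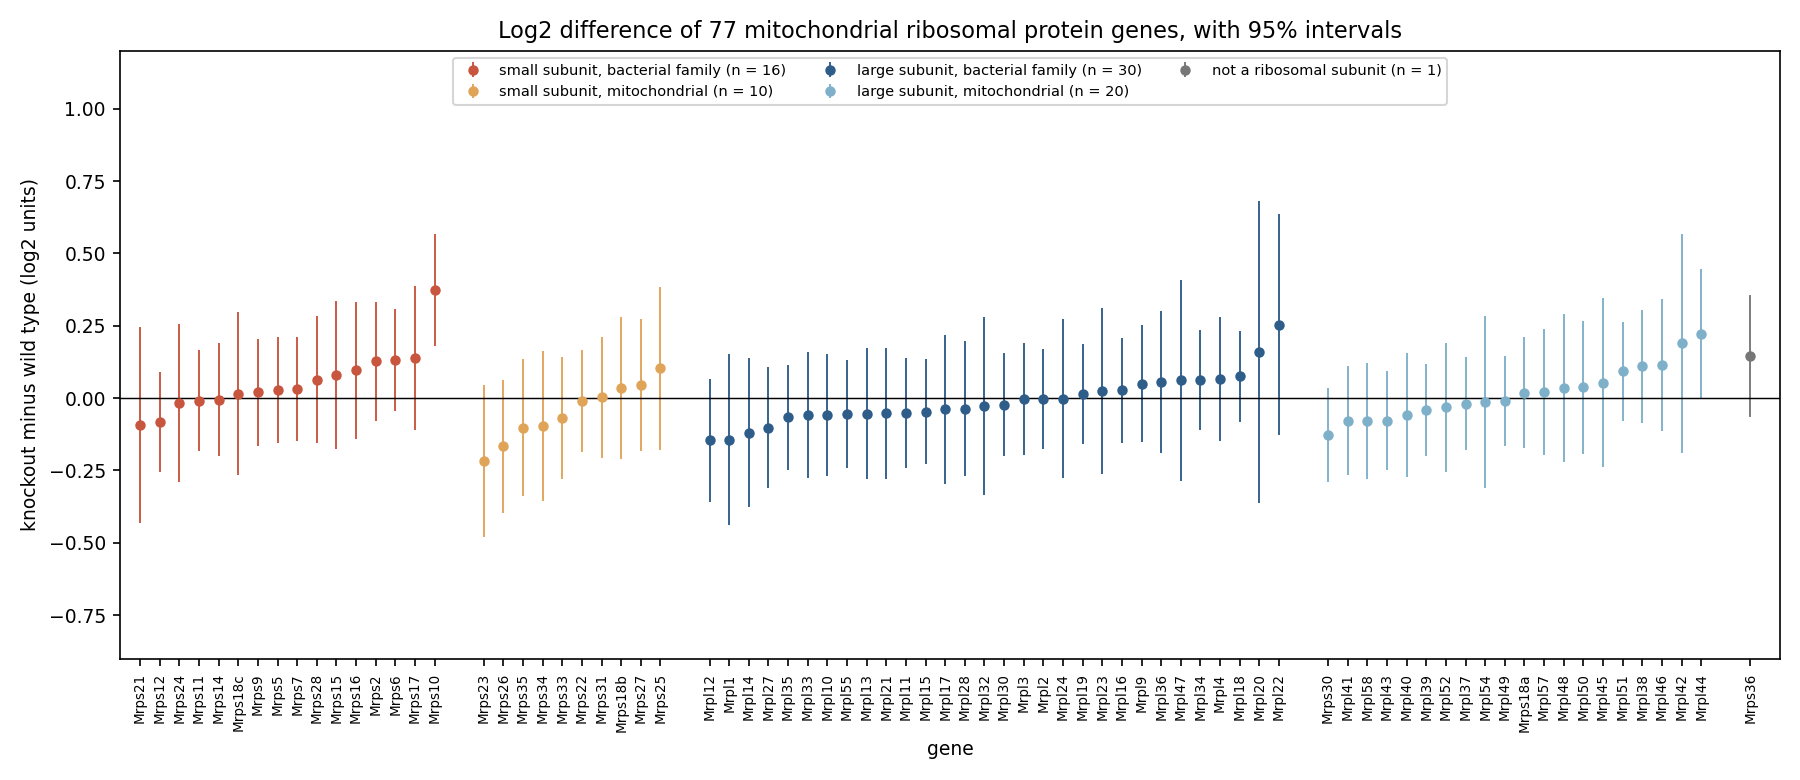
Log2 difference (knockout minus wild type, vertical axis) of each of the 77 genes with its 95% interval from limma, ordered by difference within 5 classes named in the key. Mrps10, which was chosen for its difference, is the highest point, at 0.37, and the intervals of all 76 others cross 0.

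By subunit, the small one had 14 genes higher and 11 lower without Mrps10 (median 0.01), and the large one had 21 higher and 29 lower (median -0.01). Small-subunit proteins of bacterial families, which with the ribosomal RNA form the decoding part, had 11 of 16 genes higher, Mrps10 among them, and a median of 0.03. Those classed as mitochondrial had 4 of 10 higher and a median of -0.04. In the large subunit, which holds the peptidyl transferase centre, 11 of 30 genes of bacterial families were higher (median -0.03) and 10 of 20 mitochondrial ones (median 0.0052).

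The knockout and wild-type values did not overlap for 4 of the 77 genes, or 5.19%, against a background of 5.82% of all genes. By direction, 3 were higher (background 3.18%) and 1 lower (background 2.64%). This count was 10, 9 and 15 without wild-type replicates 1, 2 and 3, and 14, 12 and 6 without knockout replicates 1, 2 and 3, where the share over all genes lay between 11% and 23.5%. Besides Mrps10 the 4 genes were Mrpl18, Mrps36 and Mrps30. Mrpl18, of the uL18 family at the central protuberance of the large subunit, read 9.20, 9.26 and 9.24 in wild type and 9.35, 9.30 and 9.27 in knockout. The nearest arrays of its groups almost touched, and the difference was 0.08 (95% interval from -0.08 to 0.23). Mrps30, which despite its name lies in the large subunit, read 8.10, 8.01 and 7.98 in wild type and 7.91, 7.93 and 7.87 in knockout, a difference of -0.13 (95% interval from -0.29 to 0.03). Mrps36 read 6.58, 6.56 and 6.32 against 6.69, 6.61 and 6.59, a difference of 0.14 (95% interval from -0.07 to 0.36) that was 0.06 without wild-type replicate 3. In the other row of Mrps36, which was dimmer, the groups overlapped. The unadjusted limma p of these 3 genes was 0.299, 0.107 and 0.152.

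The largest differences after Mrps10 were those of Mrpl22, Mrpl44 and Mrpl42. Mrpl22, of the uL22 family that lines the peptide exit tunnel, read 7.64, 8.01 and 7.29 in wild type and 7.92, 7.99 and 7.80 in knockout. Its difference of 0.25 rested largely on wild-type replicate 3, the lowest of its arrays, and was 0.07 without it and 0.43 without wild-type replicate 2. Mrpl44, a large-subunit protein with an RNase III-like fold, read 7.31, 7.49 and 7.63 in wild type and 7.78, 7.62 and 7.69 in knockout. Only the highest wild-type and the lowest knockout array met, and the difference was 0.22 (95% interval from -0.0024 to 0.45), the one with the smallest p after Mrps10. It was 0.14 without wild-type replicate 1 and 0.30 without wild-type replicate 3. Mrpl42, a mitochondrial protein of the large subunit, read 8.27, 8.19 and 7.62 in wild type and 8.32, 8.22 and 8.11 in knockout. Its difference of 0.19 again came from wild-type replicate 3 and was -0.01 without it.

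The lowest differences were those of Mrps23, Mrps26 and Mrpl12. Mrps23, a mitochondrial protein of the small subunit, read 9.999, 9.98 and 9.74 in wild type and 9.78, 9.80 and 9.48 in knockout. Its groups overlapped, with a difference of -0.22 (95% interval from -0.48 to 0.05) that was -0.11 without knockout replicate 3. Mrps26, also mitochondrial and of the small subunit, differed by -0.17 (95% interval from -0.40 to 0.06) and by -0.10 without wild-type replicate 1. Mrpl12 belongs to the family that forms the flexible stalk of the large subunit, where translation factors bind. It differed by -0.15 (95% interval from -0.36 to 0.07), by -0.07 without knockout replicate 2 and by -0.29 with a sex term. In all, 44 of the 77 differences took the opposite sign under at least 1 omission of an array and 33 did not. For Mrps10, Mrpl18, Mrps30 and Mrps36 this was fixed in advance, since groups that are apart cannot change sign when 1 array is left out. Mrpl22, Mrpl44, Mrps23, Mrps26 and Mrpl12, named here for the size of their differences, also kept their sign. The share over all genes is not given.

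Of the 77 genes, 4 lie on chromosome 4 with Tnc, namely Mrpl20, Mrpl37, Mrpl50 and Mrps15. Mrpl20, a bacterial-family protein of the large subunit, had the widest spread of all 77, with a within-group SD of 0.38, ahead of Mrpl22 (0.26) and Mrpl42 (0.26). It read 8.30, 8.92 and 9.05 in wild type and 9.32, 8.72 and 8.71 in knockout, so wild-type replicate 1 and knockout replicate 1 lay at opposite ends. Its difference was 0.16 (95% interval from -0.36 to 0.68) and -0.07 without wild-type replicate 1. Mrpl37, Mrpl50 and Mrps15 differed by -0.02, 0.04 and 0.08, and none of the 4 separated the groups.

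Across the arrays the genes varied together. The mean deviation of the 76 genes other than Mrps10 from their own means over the 6 arrays was 0.01, 0.06 and -0.08 in wild-type replicates 1, 2 and 3. It was 0.09, -0.04 and -0.04 in knockout replicates 1, 2 and 3. Knockout replicate 1 and wild-type replicate 2 were the high arrays and wild-type replicate 3 the low one, so the high and low arrays did not follow the genotype. In knockout replicate 1, 67 of the 76 genes stood above their own mean, and in wild-type replicate 2, 60 did. In wild-type replicate 3 and knockout replicates 2 and 3 only 22, 21 and 25 did.

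**Figure D3:**
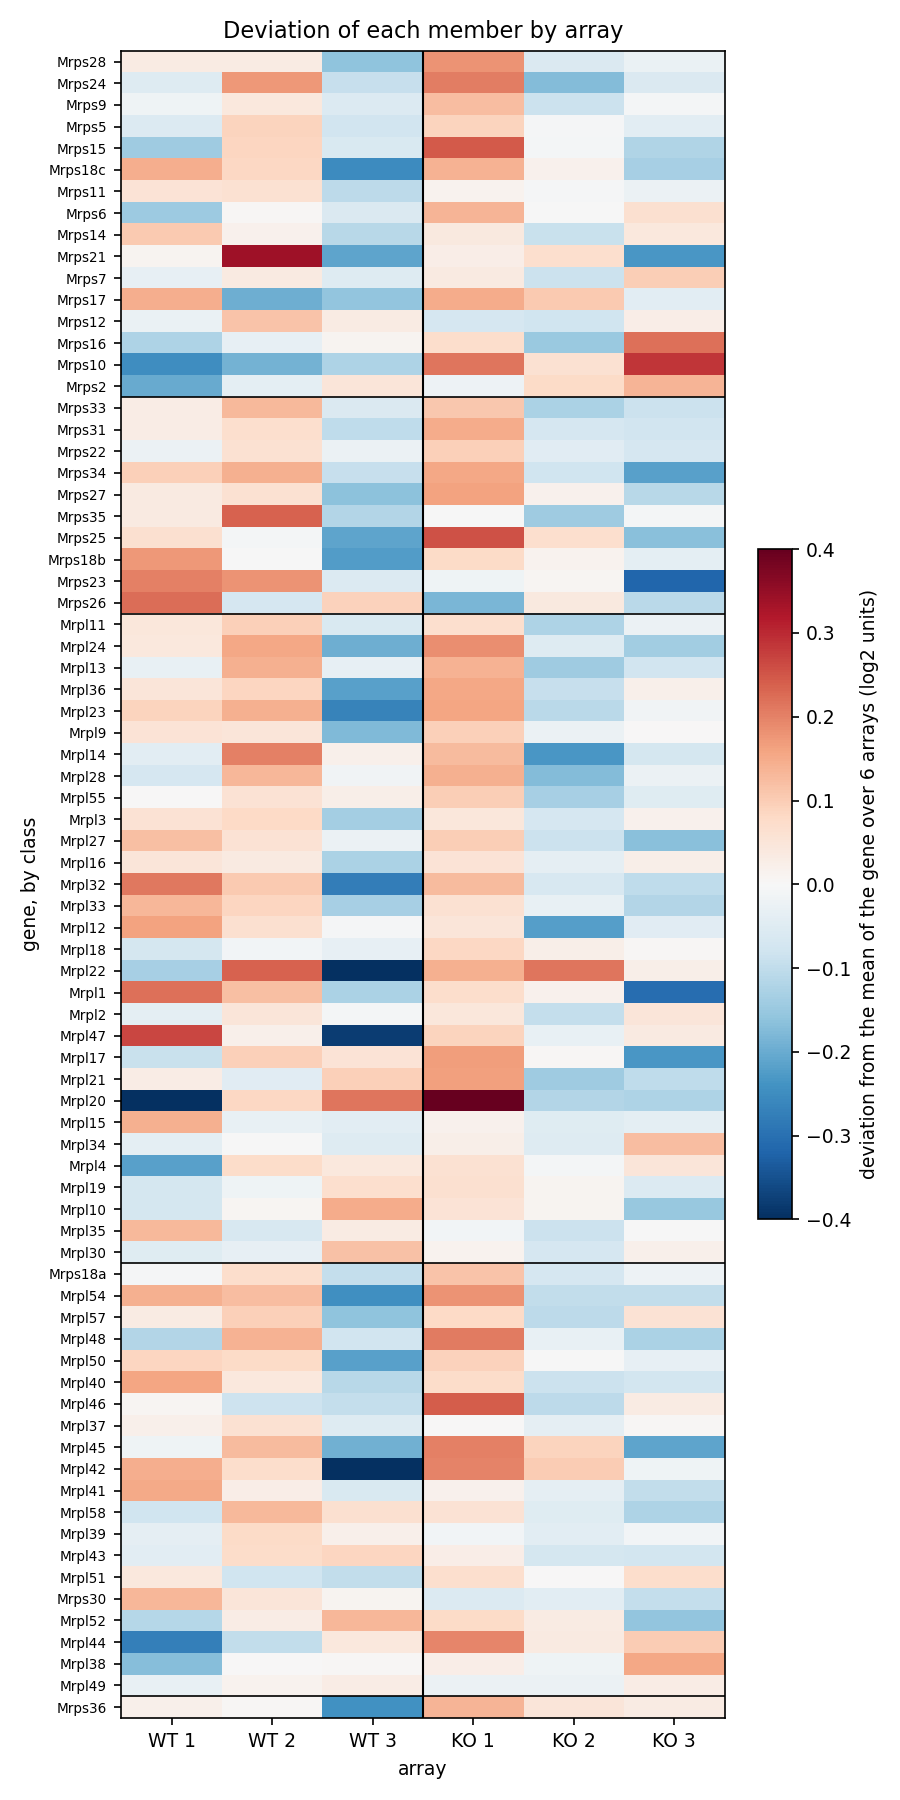
Deviation of each of the 77 genes (rows, by class as in the text and, within a class, by mean correlation with the other members) from its mean over the 6 arrays (columns, WT wild type, KO Tnc knockout), in log2 units by colour. Most rows are red in WT 2 and KO 1 and blue in WT 3, while Mrps10 is blue in all 3 wild-type arrays and red in all 3 knockout arrays. Values beyond the ends of the colour scale take its end colours.

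After removal of the group means, the mean Pearson correlation over the 2926 pairs of members was 0.305 across the 6 arrays, and 73.1% of pairs were above 0. Over all pairs of genes tested the mean was 0.018, and over genes above the median level 0.048. The correlation between small-subunit and large-subunit genes (0.311) was like that within the small (0.302) and the large subunit (0.292). These values describe 6 arrays that share a normalization, and no p is attached. Cytosolic ribosomal protein genes, 60 in number, had a mean pairwise correlation of 0.324. These genes include Rpl39l (mean signal 4.40) and Rpl3l (5.56), read below the background guide of 6.14. Among genes above the median level the correlation was 0.432, against 0.312 for the members. The mean deviations of the 60 cytosolic genes were 0.01, 0.07 and -0.06 in wild type and 0.07, -0.07 and -0.03 in knockout. Knockout replicate 1 and wild-type replicate 2 were again the high arrays, but the lowest was knockout replicate 2, followed by wild-type replicate 3. The spread between arrays was wider than that of all genes above the median level, whose mean deviations ran from -0.04 to 0.02 with wild-type replicate 3 lowest there too. Over all genes tested the order was different, with wild-type replicate 3 highest (0.04) and wild-type replicate 1 lowest (-0.03).

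**Figure D4:**
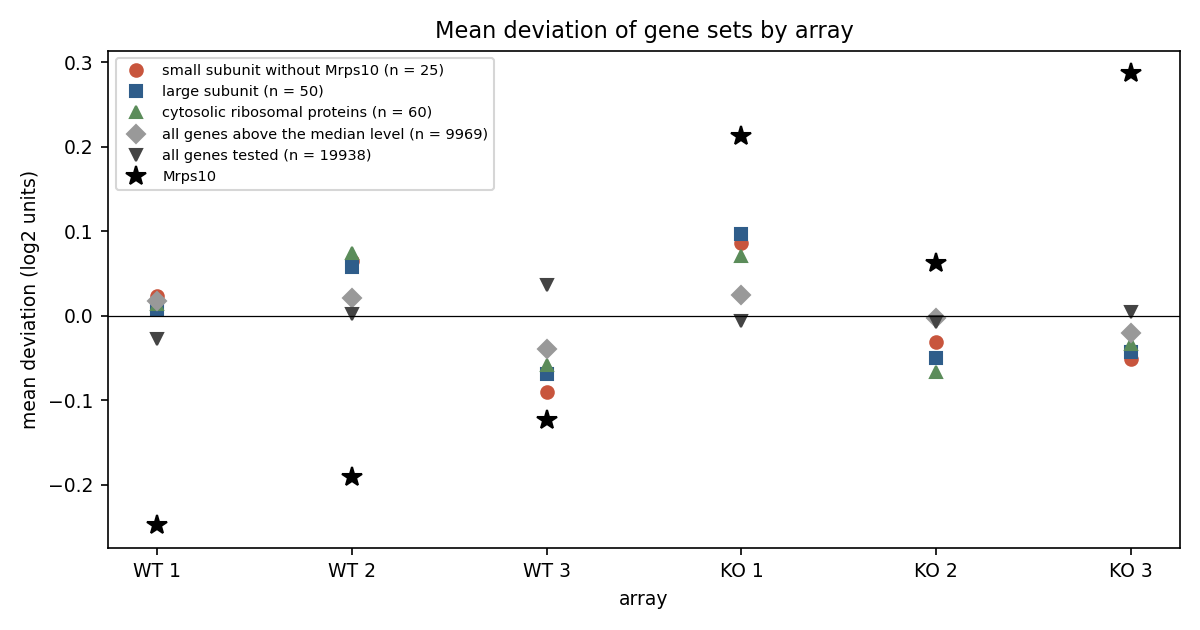
Mean deviation from the mean of each gene over 6 arrays (vertical axis, log2 units) in each array for the small subunit without Mrps10, the large subunit, cytosolic ribosomal proteins, all genes above the median level and all genes tested, with Mrps10 as stars. The ribosomal sets lie together, low in WT 3 (about -0.06 to -0.09) and high in KO 1 (about 0.07 to 0.10), whereas Mrps10 lies below 0 in every wild-type array and above 0 in every knockout array.

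The co-variation depended on scaling and on single arrays. It was 0.161 after renewed quantile normalization (all genes 0.001) and 0.204 after median centring of the arrays (all genes 0.035). It was 0.182 without knockout replicate 1 and 0.408 without wild-type replicate 1. Skeletal muscle markers were listed as a possible sign of tissue carried over in dissection. Their mean deviations were -0.18, -0.03 and 0.21 in wild type and -0.13, 0.01 and 0.11 in knockout. Their list mean was highest in wild-type replicate 3, where the members were lowest. In that array the mean deviation over all genes tested was also the highest (0.04), and that over genes above the median level the lowest (-0.04). Whether muscle was carried over, and any part of it in the co-variation, was not tested. By gene, Myod1 and Ckm were highest in wild-type replicate 3, Myog in knockout replicate 3 and Acta1 in knockout replicate 1. The forebrain markers Emx1 and Emx2 also had their highest mean deviation in wild-type replicate 3 (0.44), and Emx2 was read below the background guide. All 4 muscle markers measured (Myod1, Myog, Ckm and Acta1) had mean signals between 6.37 and 7.94, with list means of 6.80 to 7.19 in wild type and 6.85 to 7.09 in knockout.

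Of the 77 genes, 67 correlated above 0 with the mean of the others, a larger share than the 46.6% of all genes that did so with the mean of the members. Above 0.8 there were 26 of the 77, against 8.49% of all genes. After removal of the group means, the first principal component held 53.2% of the variance of the 76 genes other than Mrps10 and 57.3% of that of all genes, a share no higher in the members. The tightest were Mrps33 and Mrps31 of the small subunit and Mrps18a, a relative of the bacterial S18 protein that sits in the large subunit, with mean pairwise correlations of 0.55, 0.54 and 0.55. Mrps18a read 9.90, 9.97 and 9.81 in wild type and 10.02, 9.84 and 9.89 in knockout. The furthest from the pattern were Mrps26 (-0.37), Mrps2 (-0.35), of the uS2 family, and Mrpl49 (-0.21), a large-subunit protein. Mrpl49 was nearly flat, reading between 10.47 and 10.53 in all 6 arrays. Mrps10 had a mean correlation of 0.02 with the others after removal of the group means, with 37 of the 76 above 0, and Mrpl44 had 0.0069. That value for Mrps10 lay between -0.40 (without knockout replicate 2) and 0.20 (without wild-type replicate 3).

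Of the 8 genes with 2 rows (Mrpl23, Mrpl27, Mrpl41, Mrpl47, Mrpl51, Mrps33, Mrps36 and Mrps5), the rows differed by at most 0.0345 in their log2 difference, so the choice of row did not decide any direction. It did decide whether the groups of Mrps36 were apart. The other row of Mrps36 read 6.37, 6.34 and 6.07 in wild type and 6.47, 6.43 and 6.31 in knockout, so its groups overlapped. Array by array the 2 rows of a gene did not always move together. The deviations of both rows correlated at 0.99 for Mrpl23 and Mrps33, but at -0.81 for Mrpl47 and 0.0087 for Mrps5. For Mrpl47 the row used read 8.21, 7.96 and 7.56 in wild type where the dimmer row read 6.46, 6.81 and 7.25, so the array that read highest in one read lowest in the other. Which transcripts or related copies each row detects is not given in the sources used here.

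Promoter sequences were set beside this co-variation, since genes of the mitoribosome are known targets of the factors NRF1 and GABP (of the ETS family, also called NRF2) and often carry YY1 sites near their start. RefSeq promoter windows of GRCm38.p6, from 250 bases before to 50 after the annotated start, were matched for 68 of the 77 genes and for 15563 of all genes tested. Each window was searched on both strands for the letters TGCGCA (core of the NRF1 site), CCGGAAG (an ETS family site), ATGGCG (core of the YY1 site), CCAAT and TATAAA. The letters do not contain one another. The NRF1 core was in 21 of 68 members, or 30.9%, and in 10.7% of all genes. The ETS site was in 24, or 35.3%, against 12.5%, and the YY1 core in 18, or 26.5%, against 11.6%. At least 1 of these 3 was in 46 of 68 member windows, or 67.6%, against 29.1%. The CCAAT box was as frequent in members as in all genes (38.2% and 38.3%), and TATAAA was in 4 windows, or 5.88%, against 12.1%.

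Member windows were also richer in CpG, with a median of 21 CpG dinucleotides against 15, at a median GC content of 58.2% and 57.7%. Among the 9616 windows with at least 10 CpG the shares of all genes were 16.2% for the NRF1 core, 18.6% for the ETS site and 16.8% for the YY1 core, still below those of the 66 members in that range (30.3%, 36.4% and 27.3%). In that range TATAAA was in 5.56% of all genes and 6.06% of members, and the CCAAT box in 37.6% and 37.9%. A match of letters is a description and does not show that a factor binds there.

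**Figure D5:**
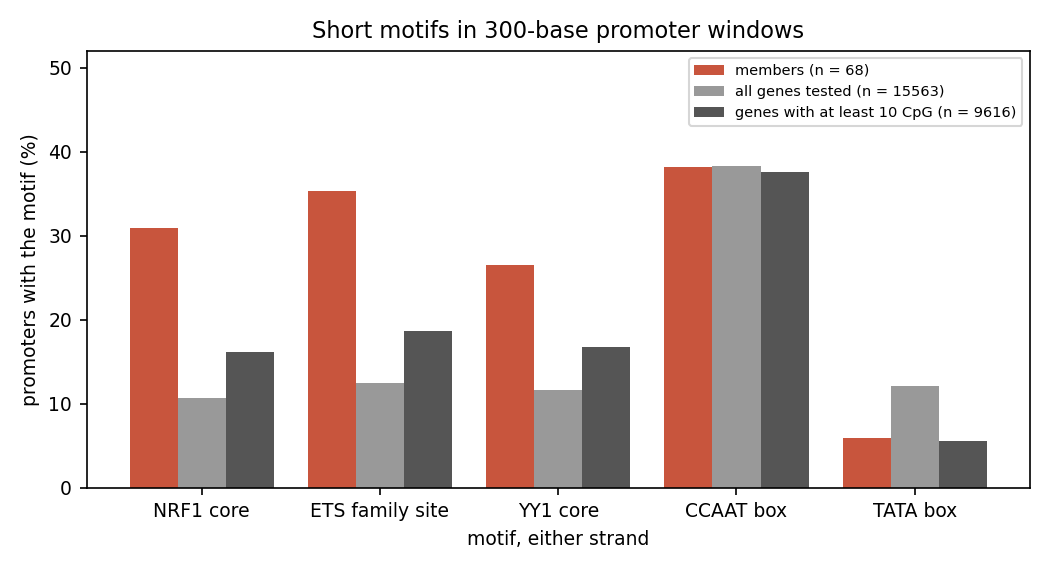
Share of promoter windows (vertical axis, percent) that hold each of 5 motifs on either strand, for 68 members, for all 15563 genes tested with a window, and for the 9616 of them with at least 10 CpG. The NRF1, ETS and YY1 bars of the members, from 26.5% to 35.3%, stand above both grey bars, and the CCAAT bars are level.

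The windows of 4 members are shown because they span what was found, Mrps10 with its group difference, Mrps18a with the tightest co-variation, and Mrpl22 and Mrpl44 with the next largest differences. Each is the 250 bases before the annotated start, 5′ to 3′ on the strand of the gene, from GRCm38.p6, with matches to any of the 5 motifs in capitals. They lie at chr17:47368947-47369196, chr17:46110754-46111003, chr11:58171414-58171663 and chr1:79775768-79776017, all on the plus strand.
Mrps10: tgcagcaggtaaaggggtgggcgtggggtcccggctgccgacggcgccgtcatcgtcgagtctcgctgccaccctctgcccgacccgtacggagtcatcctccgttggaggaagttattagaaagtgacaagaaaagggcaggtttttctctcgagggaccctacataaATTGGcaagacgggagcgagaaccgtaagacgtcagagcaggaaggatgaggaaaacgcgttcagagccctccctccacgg
Mrps18a: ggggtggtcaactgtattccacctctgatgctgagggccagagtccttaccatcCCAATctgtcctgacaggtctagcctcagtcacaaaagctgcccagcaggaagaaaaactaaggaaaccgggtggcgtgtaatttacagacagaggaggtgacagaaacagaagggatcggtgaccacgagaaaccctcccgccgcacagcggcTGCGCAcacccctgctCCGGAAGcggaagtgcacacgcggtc
Mrpl22: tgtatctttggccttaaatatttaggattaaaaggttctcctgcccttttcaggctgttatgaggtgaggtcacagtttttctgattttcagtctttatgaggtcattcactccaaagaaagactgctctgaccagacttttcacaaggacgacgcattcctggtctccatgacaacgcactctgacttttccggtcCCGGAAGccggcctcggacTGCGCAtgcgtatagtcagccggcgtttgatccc
Mrpl44: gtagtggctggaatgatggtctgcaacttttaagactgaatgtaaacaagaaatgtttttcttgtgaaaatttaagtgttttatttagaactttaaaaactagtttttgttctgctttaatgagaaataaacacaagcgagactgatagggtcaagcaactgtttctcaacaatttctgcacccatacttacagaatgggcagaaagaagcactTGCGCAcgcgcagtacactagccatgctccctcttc
The Mrps10 window held only the reverse of CCAAT, and none of the NRF1, ETS or YY1 letters, as was true of 22 of the 68 member windows. Of the stretches shown, that of Mrps18a held CCAAT, the NRF1 core and an ETS site, that of Mrpl22 an ETS site close to an NRF1 core, and that of Mrpl44 an NRF1 core. With the 50 bases past the start, the windows of Mrps18a and Mrpl22 also held a YY1 core, which made them 2 of the 3 member windows with all 3 motifs (4.41%, against 0.398% of all genes).

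Other genes of mitochondrial translation gave no call at the adjusted threshold either. Of 4 measured mitoribosomal proteins with other names, Dap3, a small-subunit GTP-binding protein, read 10.34, 10.30 and 10.29 in wild type and 10.28, 10.25 and 10.22 in knockout. The groups were apart, as in 5.82% of all genes, but by a difference of only -0.06 (95% interval from -0.22 to 0.09). Ptcd3, Chchd1 and Gadd45gip1 differed by -0.05, 0.04 and -0.08 with overlapping groups.

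Of 15 translation factors 4 were higher and 11 lower (median -0.03), and limma called 0 of them, with 0 at an unadjusted p under 0.05. Groups were apart for 1 of them, Taco1 (6.67%, against 5.82% of all genes), at a difference of -0.04. The elongation factor Tufm, which brings aminoacyl-tRNA to the ribosome, differed by 0.15 (95% interval from -0.05 to 0.34), and Mtrf1l, a release factor, by 0.23 (95% interval from -0.13 to 0.59). Mitochondrial aminoacyl-tRNA synthetases and the enzymes that charge glutamine tRNA, 21 of 22 listed, had 11 higher and 10 lower (median 0.0082), again with 0 called and 0 at an unadjusted p under 0.05. Gatb and Iars2 had the smallest p of that list, at differences of -0.10 and 0.08.

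Among 23 factors of mitoribosome assembly 9 were higher and 14 lower (median -0.03). One of them, Fastkd2, an RNA-binding protein needed for the large subunit and its ribosomal RNA, had an unadjusted limma p of 0.0287, or 4.35% of the list against the background of 1.7%, and an adjusted p of 1. Fastkd2 read 7.90, 7.78 and 7.65 in wild type and 7.61, 7.56 and 7.31 in knockout. All knockout arrays lay below all wild-type arrays, by 0.28 on average (95% interval of the difference from -0.52 to -0.04), though the nearest arrays were almost level. The GTPase Gtpbp10, also of the large subunit's assembly, differed by -0.12 (95% interval from -0.38 to 0.13). Groups were apart for 2 of the 23, Fastkd2 and Tfb1m (8.7%, against 5.82% of all genes), the latter at a difference of -0.05.

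Of 13 genes for mitochondrial transcription and its nuclear regulators 8 were higher and 5 lower (median 0.03), with 0 called and 0 at an unadjusted p under 0.05. Tefm, the elongation factor of mitochondrial RNA polymerase, differed by -0.14 and the coactivator gene Ppargc1b by 0.07. Groups were apart for Ppargc1b only (7.69% of the list, against 5.82% of all genes). Of 15 mitochondrially encoded RNAs listed, 2 had a row with a single symbol, COX2 and ND3, products of which the mitoribosome makes. They differed by -0.04 (95% interval from -0.27 to 0.18) and 0.0044 (95% interval from -0.27 to 0.28). Of the 60 cytosolic ribosomal protein genes 28 were higher and 32 lower (median -0.01), and 0 had an unadjusted p under 0.05. Rpl12 of the large and Rplp2 of the stalk had the smallest p of these, at differences of -0.22 (95% interval from -0.53 to 0.09) and 0.14 (95% interval from -0.06 to 0.34).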

How the data were processed

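The authors deposited log2 values of 6 arrays. Per the submitters' processing notes these came from RMA, while neither its version nor the genome build is stated there. RMA corrects background, equalises the arrays and summarises the probes of a transcript cluster, which leaves the deposited log2 values comparable between arrays but not free of shifts. The medians of the arrays still lay between 6.96 and 7.10, and precision is limited by how few arrays there are.

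Rows were named from the platform annotation, where 21789 rows had 1 symbol, 1621 several and 12147 none, and 19856 of 19938 genes matched the RefSeq table. Groups were compared with limma 3.58.1 in R 4.3.3 (lmFit, eBayes, two-sided, Benjamini-Hochberg over all genes). The fit was also run on simulated data with independent noise for each gene and array. Such data lack the variation shared by genes in these arrays, so that run does not show how the p-values behave here. Co-variation is the mean pairwise Pearson correlation of deviations from group means.

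The members and lists were chosen with earlier results of these data known. Named genes are Mrps10, members with groups apart or an unadjusted p under 0.05, the 3 extremes of signal per subunit and of difference and spread, members with 2 rows, the 2 list genes of smallest p and the neighbours of Mrps10. Genes named for co-variation, for chromosome 4, for low signal or groups apart in a list, or to complete a short list were chosen after seeing their values. Deviations of the wild-type and knockout arrays with replicate numbers 1, 2 and 3 correlated at 0.345, -0.0746 and 0.449. Arrays with unlike numbers were not compared, so these values do not settle whether the numbers mark pairs. The reported fit did not pair the arrays, and a fit with the replicate number as a block is given below. Figures were drawn with matplotlib 3.10.9.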

Additional observations from a re-analysis of the deposited data

How the results depend on the processing

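Limma's count of members at an adjusted p of 0.05 was 0 under all alternatives run, with 0 genes called over the whole table except 4 without knockout replicate 2. The difference of Mrps10 ran from 0.32 to 0.44 with 1 array left out, where groups that are apart cannot change sign. It was 0.25 with a sex term, a fit that rests on 1 knockout array. That shift was larger than the within-group SD of Mrps10, 0.09. The median difference of the other members ran from -0.04 to 0.04 with 1 array left out and was -0.05 with a sex term, so it has no settled sign. Members with an unadjusted p under 0.05, 1 in the reported fit, were 1 to 3 with 1 array left out (1.1% to 6.91% of all genes, the highest count and share both without wild-type replicate 3), 4 with the replicate number as a block (3.19% of all genes), 2 after renewed quantile normalization (2.37%), 2 among genes above the 25th percentile by level (1.65%) and 17 with array weights (21.0%). The 1 such member with a sex term was Mrpl12 (difference -0.29, unadjusted p = 0.0468). The block called 0 members at the adjusted threshold as well. Members whose groups did not overlap, 4 of 77 (5.82% over all genes), were 6 to 15 with 1 array left out (11% to 23.5% over all genes). Groups that are apart stay apart when an array is left out, so this count can only stay or rise. With the most variable row of each gene the count was 3 (5.75% over all genes). Co-variation, 0.305, ran from 0.182 to 0.408 with 1 array left out and was 0.161 after renewed quantile normalization and 0.204 after median centring. Beyond that rule for groups apart, the cause of these shifts was not tested. With 3 arrays a group, a change as small as the usual member's interval of 0.21 could not be told from none.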
